A study of Mus musculus with 8 samples.

Results

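The interleukin-1 (IL-1) family genes followed here are 10 ligands, receptors and antagonists, taken wherever the gene name in the array files equals Il1a, Il1b, Il18, Il33, Il1rn, Il1r2, Il18bp, Il1r1, Il1rap or Il1rl1. They are 10 of the 36163 gene names on the array and are read by 14 of its 55681 probes. Lungs of 4 wild-type and 4 GGPPS1 knockout C57BL/6 mice were compared, all taken 12 h after lipopolysaccharide (LPS), the bacterial cell wall component that is sensed through TLR4. The knockout is lung-specific per the series' design text, which counts 4 mice in each group. GGPPS1 (gene Ggps1) makes geranylgeranyl diphosphate, a membrane anchor of many small GTPases, and the series title names the NLRP3 inflammasome, which matures IL-1β and IL-18. The age of the mice, the dose of LPS, the driver of the deletion and the cells it reaches are not given in the sources used here, whole lung also holds cells that such a deletion spares, and mice without LPS were not analysed here.

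IL-1α and IL-1β bind the receptor chain IL-1R1, which signals together with the accessory chain IL-1RAP, while IL-33 uses the receptor ST2 (gene Il1rl1) with the same accessory chain, and IL-18 has receptors of its own. These agonists have brakes: the receptor antagonist IL-1Ra (Il1rn) occupies IL-1R1 without signalling, the decoy receptor IL-1R2 binds IL-1 and lacks a signalling domain, and IL-18BP binds IL-18 in solution. In the lung, IL-1β comes mainly from recruited and resident myeloid cells after LPS, and IL-33 is an alarmin that alveolar epithelium keeps in its nuclei.

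Each lung was hybridised to its own array of 1 colour. Values are log2 signals minus the 75th percentile of the same array, listed in the order of the replicate numbers 1 to 4. Differences are knockout minus wild-type on that scale, and p-values are from limma adjusted by Benjamini-Hochberg over the 24464 genes that passed the filter on dim probes, with a threshold of 0.05. The share of spots well above background was 61.5% to 65.3% on wild-type and 58.1% to 61.6% on knockout arrays, and 0 spots were saturated. The lowest signal well above background was -5.40 to -5.12 on wild-type and -4.94 to -4.63 on knockout arrays. The number of arrays limits the precision. All 8 arrays lay on 1 slide, wild-type samples in slide row 1 and knockout samples in row 2, so that slide row and genotype cannot be told apart. Same-numbered samples of both genotypes shared a slide column. The brightest Ggps1 probe read 1.26, 1.34, 1.26 and 1.40 in the wild-type lungs and 1.32, 1.24, 1.22 and 1.24 in the knockout lungs (difference -0.060 ± 0.071, SE; limma, adjusted p = 0.633 over all probes). The other Ggps1 probes differed by -0.12 ± 0.15 and 0.19 ± 0.089, and since the deleted part of the gene is not given, the labels of genotype cannot be checked with them. Over all genes, 8 rose and 7 fell in the knockout lungs, which is 0.0613% of those tested. Leaving out 1 sample at a time gave 1 to 11 genes that rose and 0 to 12 that fell, with 1 that rose and 0 that fell without wild-type replicate 2, knockout replicate 1 or knockout replicate 2. Surfactant and other alveolar type 2 markers had a mean level of 6.001 to 6.25 in wild-type and 5.63 to 6.24 in knockout samples, so the labelled tissue was present on every array.

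The agonists and their brakes were lower in the knockout lungs and 2 of the 3 receptor chains were higher, but no member passed the test. Of the 10 members, all of which passed the filter on dim probes, 8 were lower and 2 were higher, against 54.3% lower over all genes tested. Past the threshold were 0 members, where 0.0613% of all genes passed. At an unadjusted p under 0.05 there were 4 members (Il1a, Il1r2, Il1rap and Il1rl1), where 23.5% of all genes had such a p. The 4 knockout and 4 wild-type values did not overlap for 2 members, Il1rap and Il1rl1, a share close to the 15.3% over all genes. The median difference was -0.77 over the members, -0.77 over the 4 agonists, -0.81 over the 3 antagonists and decoys and 0.29 over the 3 receptor chains, beside -0.027 over all genes tested. These classes go by gene, and the Il1rap value among the receptor chains is from the probe assigned to a soluble form. The Il1rap probe for the membrane-bound form was lower too (-1.01). Without knockout replicate 3 the median was -0.46 over the members and -0.42 over the antagonists and decoys. In whole-lung RNA, fewer cells of a type and less RNA per cell cannot be told apart.

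**Figure D1:**
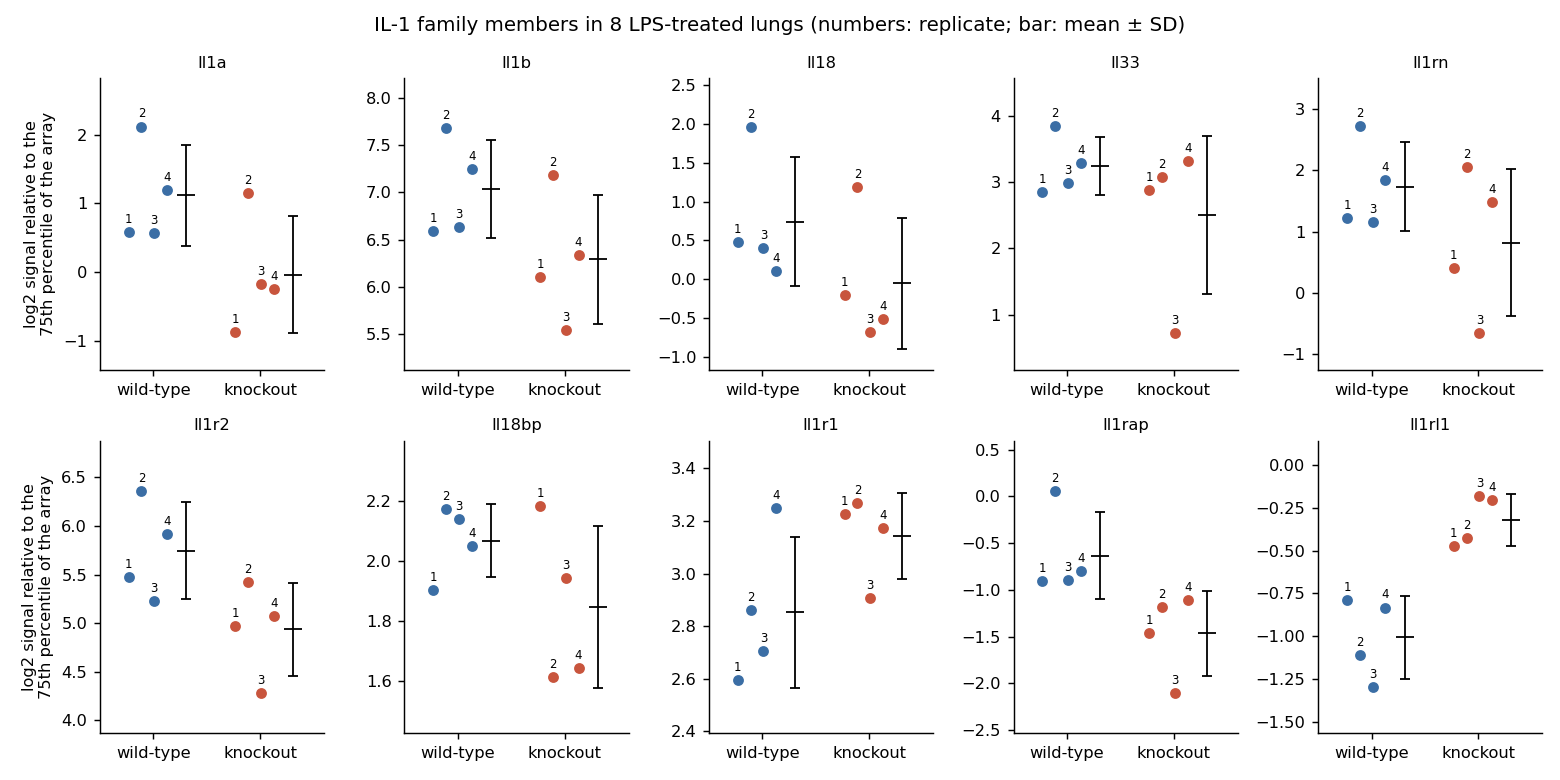
Level of each of the 10 IL-1 family genes in the 8 lungs, as log2 signal minus the 75th percentile of the same array (vertical axis, scaled separately for each gene), with the replicate number at each point and the mean ± SD of each group (n = 4) beside it. Wild-type and knockout points are apart for Il1rap and Il1rl1 and overlap for the other 8 genes, and the knockout value of Il33 in replicate 3 (0.73) lies far below the other 3.

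Il1a encodes IL-1α, which is active as a precursor and is released from dying cells. Its probe (NM_010554; mm9 chr2:129125994-129126053, minus strand) read 0.58, 2.12, 0.57 and 1.19 in the wild-type lungs and -0.87, 1.15, -0.17 and -0.25 in the knockout lungs. Wild-type replicate 2 was the highest and knockout replicate 1 the lowest, and knockout replicate 2 lay above 2 of the wild-type values, so the groups overlapped. The level was 2.22-fold lower in the knockout lungs, a difference of -1.15 ± 0.49 (SE, 95% interval -2.28 to -0.023), which did not pass (limma, adjusted p = 0.205). Leaving out 1 sample at a time gave -1.54 to -0.82.

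Il1b encodes the IL-1β precursor that caspase-1 cleaves. Its probe (NM_008361; mm9 chr2:129190347-129190406, minus strand) was printed in 10 spots per array, 8 to 10 of which were usable on each, and the SD of the log2 signal over the spots of an array was between 0.013 and 0.031. It read 6.59, 7.68, 6.63 and 7.24 in the wild-type lungs and 6.10, 7.18, 5.54 and 6.34 in the knockout lungs. Wild-type replicate 2 was the highest and knockout replicate 3 the lowest. Knockout replicate 2 exceeded wild-type replicates 1 and 3, and the difference of -0.74 ± 0.38 (SE, 95% interval -1.61 to 0.12) did not pass (limma, adjusted p = 0.269). Without knockout replicate 3 it was -0.49.

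Il18, the precursor of IL-18, was read by 1 probe (NM_008360; mm9 chr9:50389761-50389820, plus strand). Its levels were 0.48, 1.96, 0.41 and 0.10 in the wild-type lungs and -0.21, 1.18, -0.68 and -0.51 in the knockout lungs. Replicate 2 stood well above the rest in both groups, and the other 3 knockout values were below every wild-type value. The difference of -0.79 ± 0.52 (SE, 95% interval -1.99 to 0.40) did not pass (limma, adjusted p = 0.378) and was -0.38 without wild-type replicate 2 and -1.20 without knockout replicate 2.

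Il33 (NM_001164724; mm9 chr19:30035101-30035160, plus strand) read 2.85, 3.84, 2.98 and 3.29 in the wild-type lungs and 2.89, 3.08, 0.73 and 3.31 in the knockout lungs. Knockout replicates 1, 2 and 4 lay within the wild-type range, and replicate 3 alone was lower. The difference was -0.74 ± 0.56 (SE, 95% interval -2.02 to 0.54; limma, adjusted p = 0.438), and without knockout replicate 3 it was -0.15. On that array 58.1% of the spots were well above background, the lowest share of the 8.

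**Figure D2:**
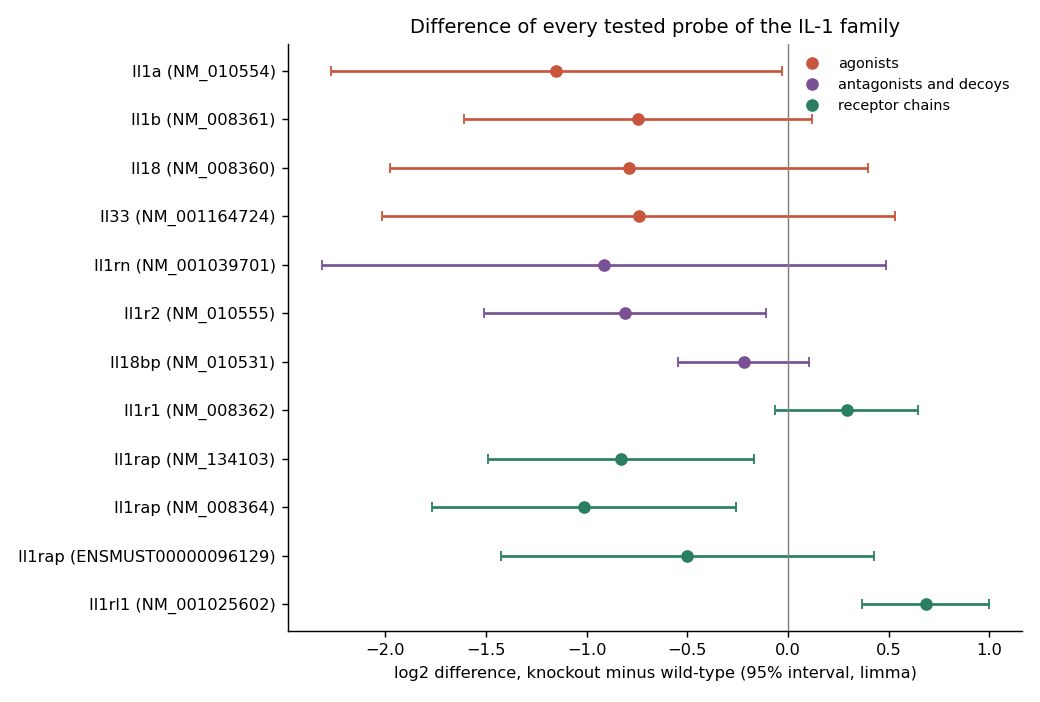
Difference between knockout and wild-type lungs for each of the 12 IL-1 family probes that passed the filter on dim probes (horizontal axis, log2 scale; points are the differences, bars their 95% intervals by limma, colours the role of the gene, and the transcript accession stands beside the gene name). The intervals of Il1a, Il1r2, both brighter Il1rap probes and Il1rl1 exclude 0, without adjustment for the number of probes tested.

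The probe sequences of the antagonist Il1rn, the agonist Il18 and the decoy Il1r2 are shown because the first and second say from their own letters which part of the mRNA was read. They are copied from the array files, 60 bases each, on mm9. The Il1rn probe (chr2:24205094-24205153, plus strand) and the Il18 probe (chr9:50389761-50389820, plus strand) each run over the stop codon that ends the reading frame, marked in capitals, and so read the 3′ end of the coding sequence. The Il1r2 probe (chr1:40180014-40180073, plus strand) has 2 reading frames without a stop and no capitals, so its letters do not place it.
Il1rn: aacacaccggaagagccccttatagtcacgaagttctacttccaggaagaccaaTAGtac
Il18: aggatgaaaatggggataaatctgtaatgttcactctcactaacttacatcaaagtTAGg
Il1r2: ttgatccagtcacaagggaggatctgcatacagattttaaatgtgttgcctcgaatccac

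Among the brakes, Il1rn (NM_001039701) read 1.22, 2.73, 1.16 and 1.84 in the wild-type lungs and 0.40, 2.06, -0.65 and 1.48 in the knockout lungs. The knockout values ran from the lowest of the 8 in replicate 3 to the second highest in replicate 2, and the groups overlapped. The difference of -0.92 ± 0.61 (SE, 95% interval -2.32 to 0.49) did not pass (limma, adjusted p = 0.386) and was -0.42 without knockout replicate 3 and -0.59 without wild-type replicate 2.

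Il1r2, the decoy receptor that neutrophils and macrophages carry and shed, had levels (NM_010555) of 5.48, 6.36, 5.23 and 5.92 in the wild-type lungs and 4.97, 5.42, 4.28 and 5.07 in the knockout lungs. Only knockout replicate 2 reached into the wild-type range, above wild-type replicate 3. The level was 1.75-fold lower in the knockout lungs, a difference of -0.81 ± 0.30 (SE, 95% interval -1.51 to -0.11), which did not pass (limma, adjusted p = 0.167). Leaving out 1 sample at a time gave -0.98 to -0.59.

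Il18bp (NM_010531; mm9 chr7:109164100-109164159, minus strand) varied least of the 10 members, with a range of 0.57 over the 8 lungs. It read 1.90, 2.17, 2.14 and 2.05 in the wild-type lungs and 2.18, 1.61, 1.94 and 1.64 in the knockout lungs. Knockout replicate 1 was the highest of all 8 and knockout replicates 2 and 4 the lowest. The difference was -0.22 ± 0.14 (SE, 95% interval -0.54 to 0.10; limma, adjusted p = 0.365), and it was -0.33 without knockout replicate 1 and -0.14 without knockout replicate 2.

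Among the receptor chains, Il1r1 (NM_008362; mm9 chr1:40372667-40372726, plus strand), which carries the IL-1 signal, read 2.60, 2.86, 2.71 and 3.25 in the wild-type lungs and 3.23, 3.27, 2.91 and 3.17 in the knockout lungs. All 4 knockout values lay above wild-type replicates 1 to 3, and wild-type replicate 4 was in their range. The difference of 0.29 ± 0.15 (SE, 95% interval -0.065 to 0.65) was in the opposite direction to that of the decoy Il1r2 and did not pass (limma, adjusted p = 0.289).

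Il1rap, the accessory chain, has 3 probes, which the array assigns to different transcripts. For Il1rap and Il1rl1 alike, a form is named here only from the accession of its probe, and hybridisation of a probe to another form was not checked. NM_134103, a shorter transcript known to encode a soluble form, is read by the brightest of them (mm9 chr16:26701498-26701557, plus strand), with -0.91, 0.058, -0.89 and -0.80 in the wild-type lungs and -1.46, -1.19, -2.11 and -1.11 in the knockout lungs. All 4 knockout values were below all 4 wild-type values, and wild-type replicate 2 stood above the others. The difference of -0.83 ± 0.29 (SE, 95% interval -1.49 to -0.17), a 1.78-fold lower level, did not pass (limma, adjusted p = 0.144).

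The Il1rap probe for NM_008364, the transcript of the membrane-bound form (mm9 chr16:26716515-26716574, plus strand), read -3.68, -2.62, -3.50 and -3.32 in the wild-type lungs and -4.60, -3.82, -4.96 and -3.79 in the knockout lungs. These groups did not overlap either, with knockout replicate 3 the lowest, and that knockout array was the 1 on which the probe was not well above background. The difference was -1.01 ± 0.33 (SE; limma, adjusted p = 0.128 over the 33866 probes tested), where 0.0650% of all probes passed. Signal of this probe minus that of the probe assigned to the soluble form differed between the groups by -0.18 ± 0.13 (SE) and by 0.31 with normexp background correction, so the sign of a shift between these probes depended on the background correction. Without knockout replicate 1 it was -0.075. The probe for ENSMUST00000096129 (mm9 chr16:26725291-26725350, plus strand) was well above background on 3 wild-type arrays and 1 knockout array and differed by -0.50 ± 0.40 (SE; limma, adjusted p = 0.476 over all probes), which was 0.0079 with normexp and -0.81 to -0.28 with 1 sample left out.

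Il1rl1 encodes ST2, the IL-33 receptor of mast cells, regulatory T cells and innate lymphoid cells, and it was the member closest to the threshold. Its measured probe, for the membrane-bound form (NM_001025602; mm9 chr1:40522187-40522246, plus strand), read -0.79, -1.11, -1.30 and -0.83 in the wild-type lungs and -0.48, -0.43, -0.18 and -0.20 in the knockout lungs. All 4 knockout values were above all 4 wild-type values. The level was 1.61-fold higher in the knockout lungs, a difference of 0.68 ± 0.14 (SE, 95% interval 0.37 to 0.997), which did not pass (limma, adjusted p = 0.0628). By unadjusted p it ranked 388 of the 24464 genes. It passed with normexp (0.61, limma adjusted p = 0.0452), without the filter on dim probes (limma adjusted p = 0.0466) and with an intensity trend in the variance (limma adjusted p = 0.0492). Over all genes, those settings gave 229, 2737 and 160 that rose and 283, 785 and 257 that fell.

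Both other Il1rl1 probes were dim. The probe for NM_010743, the soluble form that acts as a decoy for IL-33 (mm9 chr1:40504769-40504828, plus strand), was not well above background on any wild-type array and was so on knockout replicates 3 and 4. Its measured means were -6.47 in wild-type and -5.22 in knockout lungs. Wild-type replicate 1 read -5.50, above knockout replicates 1 (-5.94) and 2 (-5.77), so the groups overlapped. The difference was not tested, and no fold is given, since most of these values are not told from background. The remaining probe for NM_001025602 (mm9 chr1:40520014-40520073, plus strand) was not well above background on any of the 8 arrays, so the higher level rests on 1 of the 2 probes assigned to the membrane-bound form.

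Several members shared their highest or lowest sample, while no other member had the sample order of Il1b in both groups. Wild-type replicate 2 was the highest wild-type lung for 8 of the 10 members, knockout replicate 2 the highest knockout lung for 6 and knockout replicate 3 the lowest for 7. Likeness was measured as the root mean square difference of 2 genes' values over the 8 samples, each centred on its own mean. By it Il1r2 was nearest to Il1b among the members (0.19 log2 units), followed by Il1rap (0.30), Il1rn (0.40), Il1a (0.43), Il18 (0.43) and Il33 (0.51). Il18bp (0.66), Il1r1 (0.67) and Il1rl1 (0.93) were the farthest. Il1r2 minus Il1b changed between the groups by -0.065 ± 0.15 (SE), less than its error.

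Among all tested genes with a gene symbol, the 3 most like Il1b were Tnf (0.13), the cytokine made beside it after LPS, the glycosyltransferase gene Mgat4a (0.13) and the adaptor gene Samsn1 (0.14). Tnf read 3.01, 4.20, 3.08 and 3.87 in the wild-type lungs and 2.39, 3.75, 2.19 and 2.66 in the knockout lungs, with wild-type replicate 2 the highest and knockout replicate 3 the lowest, as for Il1b. Nearest to Il33 were Fst, the activin inhibitor (0.26), the olfactory receptor gene Olfr433 (0.30) and the neural transcription factor gene Phox2a (0.36), and all 3 had their lowest value in knockout replicate 3, which for Olfr433 (-6.43) lay under the lowest signal well above background on that array (-4.63). Nearest to Il1rl1 were Cirbp, which encodes a cold-inducible RNA-binding protein (0.097), the zinc transporter gene Slc39a4 (0.11) and Accs (0.11). Cirbp read 4.11, 3.93, 3.88 and 4.15 in the wild-type lungs and 4.58, 4.53, 4.97 and 4.72 in the knockout lungs, with groups that did not overlap. These likenesses describe 8 samples that share a genotype contrast and were not tested.

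**Figure D3:**
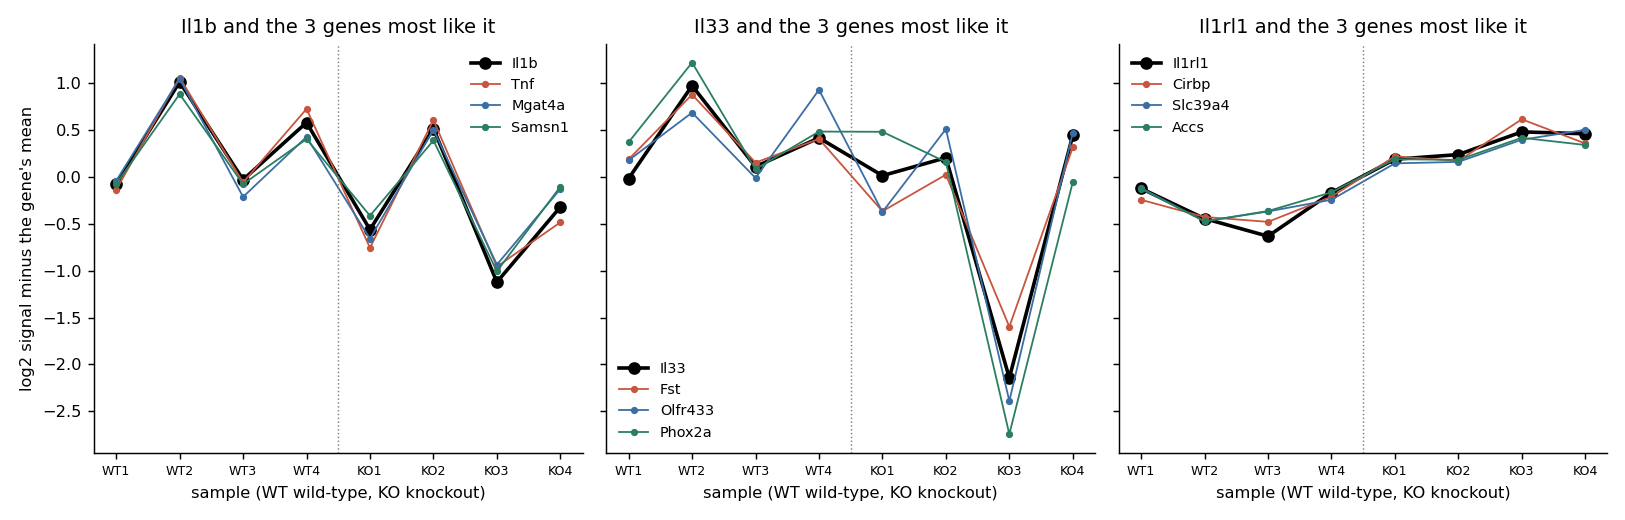
Values of Il1b, Il33 and Il1rl1 (black) and of the 3 tested genes most like each, as log2 signal minus the gene's mean over the 8 samples (vertical axis, the same in all panels), in the 4 wild-type (WT) and 4 knockout (KO) lungs along the horizontal axis, with a dotted line between the genotypes. Il1b and its neighbours peak in wild-type replicate 2, Il33 and its neighbours drop in knockout replicate 3, and Il1rl1 and its neighbours are higher in all 4 knockout lungs.

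The promoters of Il1b, of Il1r2 as the member nearest to it and of Il1a, which lies beside Il1b on chromosome 2, are shown to give the sequence before each start. Each is the 250 bases before the start site in RefSeq on GRCm38.p6, for Il1a chr2:129309973-129310222, minus strand, for Il1b chr2:129371140-129371389, minus strand and for Il1r2 chr1:40085843-40086092, plus strand, written 5′ to 3′ on the strand of the gene. Capitals mark matches, on either strand, to 4 sets of letters: TATAAA (core promoter box), TGANTCA (AP-1 site), CACGTG (E-box) and GGNNTTTCC (the last letters of one form of the NF-κB site). No marked matches overlapped.
Il1a: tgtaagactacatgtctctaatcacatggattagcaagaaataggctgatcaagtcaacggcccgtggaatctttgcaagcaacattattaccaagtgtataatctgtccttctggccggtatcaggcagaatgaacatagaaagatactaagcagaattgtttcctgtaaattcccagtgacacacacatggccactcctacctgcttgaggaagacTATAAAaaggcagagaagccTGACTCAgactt
Il1b: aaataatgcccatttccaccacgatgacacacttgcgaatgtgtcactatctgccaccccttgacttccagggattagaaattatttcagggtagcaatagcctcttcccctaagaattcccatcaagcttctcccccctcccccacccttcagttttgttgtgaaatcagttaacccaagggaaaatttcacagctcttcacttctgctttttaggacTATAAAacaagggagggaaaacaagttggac
Il1r2: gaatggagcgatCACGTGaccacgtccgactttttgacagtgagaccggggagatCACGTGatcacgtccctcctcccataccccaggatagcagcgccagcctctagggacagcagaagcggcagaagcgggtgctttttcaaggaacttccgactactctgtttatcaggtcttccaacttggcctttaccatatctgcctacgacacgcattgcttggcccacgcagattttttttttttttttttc

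Both cytokine genes have TATAAA close to the start, at 32 to 27 bases before it in Il1a and at 31 to 26 bases in Il1b. Il1a also has TGACTCA at 12 to 6 bases before its start, and Il1r2 has CACGTG at 238 to 233 and at 195 to 190 bases. All 10 members matched the promoter table, with 15 windows in all, since some have several start sites. TATAAA was found in 5 of the 15, TGANTCA in 2, CACGTG in 1 and GGNNTTTCC in 1, the last at 50 to 42 bases before one start of Il1rn. Of all 32851 windows of the same length in the table, 12.4% held TATAAA, 6.75% TGANTCA, 6.02% CACGTG and 4.93% GGNNTTTCC. A match is a description of these letters and not evidence that a factor binds there.

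Balance within the family was followed as the log2 ratio of 2 probes on the same array, whose size depends on the probes and whose change between groups shows unequal change only. For IL-1 signalling against decoy, Il1r1 minus Il1r2 was -2.88, -3.50, -2.52 and -2.67 in the wild-type lungs and -1.74, -2.15, -1.38 and -1.90 in the knockout lungs. All 4 knockout values were above all 4 wild-type values, with a change of 1.0996 ± 0.27 (SE) that was between 0.90 and 1.22 over 14 alternative settings. Of these settings, median centring cannot change a ratio within an array, and the other filters on dim probes also left it as it was. The ratio is made of the Il1r1 and Il1r2 values given above and is not a separate measurement.

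Ratios of agonist to antagonist overlapped between the genotypes. Il1b minus Il1rn differed between the groups by 0.17 ± 0.32 (SE), with 2 knockout values above and 1 below the whole wild-type range. Its sign was not stable: leaving out 1 sample gave -0.071 without knockout replicate 3, 0.055 and 0.29 without wild-type or knockout replicate 2, 0.095 without knockout replicate 1 and 0.38 without knockout replicate 4. Il1a minus Il1rn was -0.64, -0.61, -0.59 and -0.65 in the wild-type lungs and -1.27, -0.91, 0.49 and -1.73 in the knockout lungs. The 4 wild-type lungs were nearly identical (SD 0.025), whereas the knockout lungs spread on both sides of them (SD 0.96), and the means differed by -0.23 ± 0.48 (SE). This sign was not stable either, with 0.057 without knockout replicate 4, -0.096 without replicate 1 and -0.68 without replicate 3. Il18 minus Il18bp differed by -0.57 ± 0.63 (SE), with overlapping groups, and by -0.20 without wild-type replicate 2, -1.06 without knockout replicate 2 and -0.33 without knockout replicate 3.

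For IL-33 against its receptor, Il33 minus Il1rl1 was 3.64, 4.95, 4.28 and 4.12 in the wild-type lungs and 3.36, 3.50, 0.91 and 3.52 in the knockout lungs. All 4 knockout values were below all 4 wild-type values, and knockout replicate 3 was far below the other 3. The change of -1.42 ± 0.69 (SE) was -0.79 without knockout replicate 3. This ratio is made of the Il33 and Il1rl1 values given above and is not a separate measurement. Of these, Il1rl1 alone had groups that did not overlap.

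**Figure D4:**
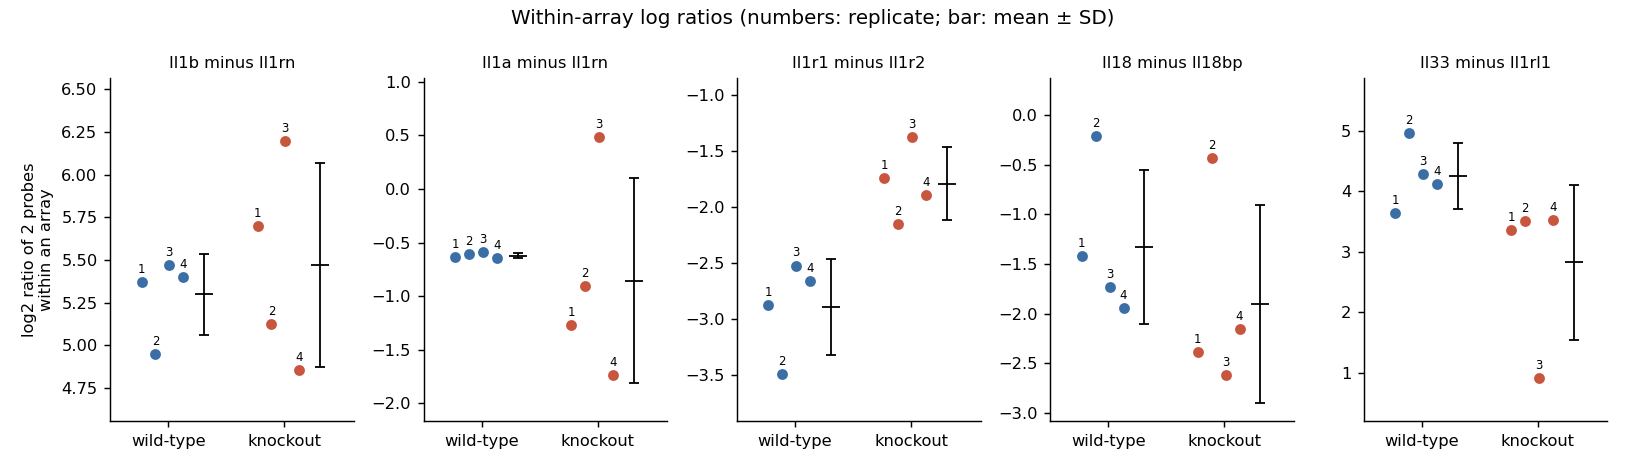
Log2 ratio of 2 IL-1 family probes within each array (vertical axis, scaled separately for each panel), with the replicate number at each point and the mean ± SD of each group (n = 4). The groups are apart for Il1r1 minus Il1r2 and for Il33 minus Il1rl1, and the 4 wild-type values of Il1a minus Il1rn lie between -0.65 and -0.59.

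No gene of 6 pathway lists around the family passed the test over all genes. Their median differences were between -0.26 and -0.080, beside -0.027 over all genes tested, of which 54.3% were lower and 23.5% had an unadjusted p below 0.05. Of the other IL-1 superfamily genes, 6 of 11 passed the filter, 5 of these were lower and 1 had an unadjusted p below 0.05 (1 of 6, or 16.7%; median -0.20). That gene was Il1f9 (IL-36γ, an epithelial and myeloid agonist), which read 2.23, 3.03, 1.79 and 2.30 in the wild-type lungs and 0.85, 1.95, 0.15 and 1.53 in the knockout lungs and differed by -1.22 ± 0.41 (SE; limma, adjusted p = 0.138). The next by p were Il18r1, the IL-18 receptor chain, at -0.16 ± 0.088, Il1f6 (IL-36α) at -0.73 ± 0.74 and Il1rl2, the IL-36 receptor, at -0.19 ± 0.22 (SE). Il1rl2 was well above background on 3 wild-type arrays and 1 knockout array. It passed the filter only through the wild-type group, where it was higher, so its direction carries little weight. The genes on the array that did not pass the filter were Il1f8, Il1f5, Il1f10, Il1rapl1 and Il1rapl2.

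Of 22 genes that signal downstream of IL-1 receptors, 17 were lower and 5 higher, and 5 of the lower and 1 of the higher ones had an unadjusted p below 0.05 (6 of 22, or 27.3%, beside 23.5% of all genes; median -0.10). Irak4, the first kinase recruited to the receptor through MyD88, read -0.87, -0.80, -0.75 and -1.04 in the wild-type lungs and -1.23, -1.34, -1.40 and -1.53 in the knockout lungs. Its groups did not overlap, and the difference of -0.51 ± 0.097 (SE) did not pass (limma, adjusted p = 0.0625). Ikbkb and Ikbkg, subunits of the IκB kinase complex, differed by -0.31 ± 0.091 and -0.26 ± 0.082, also without overlap, and the ubiquitin ligase gene Traf6 by -0.40 ± 0.15 (SE; limma, adjusted p = 0.106, 0.124 and 0.156). Chuk, another subunit of that complex, was higher by 0.15 ± 0.071, also without overlap (SE; limma, adjusted p = 0.237). The groups did not overlap for 5 of the 22 genes, beside 15.3% of all genes.

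Of 19 genes for the processing and release of the cytokines, 14 were lower and 5 higher, and 6 of the lower and 1 of the higher ones had an unadjusted p below 0.05 (7 of 19, or 36.8%, beside 23.5% of all genes; median -0.26). Casp8, a caspase that can cleave the IL-1β precursor, read 2.46, 2.65, 2.48 and 2.36 in the wild-type lungs and 2.03, 2.17, 1.95 and 1.91 in the knockout lungs, without overlap. It differed by -0.47 ± 0.091, the DNA sensor gene Aim2 by -0.68 ± 0.15, the converting enzyme gene Casp1 by -0.49 ± 0.16 and Nlrp3 by -1.37 ± 0.46 (SE; limma, adjusted p = 0.0628, 0.0692, 0.125 and 0.137).

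Of 20 genes that IL-1 and NF-κB induce, 14 were lower and 6 higher, and 3 of the lower and 1 of the higher ones had an unadjusted p below 0.05 (4 of 20, or 20%, beside 23.5% of all genes; median -0.22). Cxcl5, an epithelial chemokine for neutrophils, was the higher one and read 4.02, 3.82, 4.36 and 4.58 in the wild-type lungs and 4.84, 5.40, 4.73 and 5.62 in the knockout lungs. The difference of 0.95 ± 0.25 (SE) separated the groups and did not pass (limma, adjusted p = 0.0863). The endothelial selectin gene Sele differed by -1.14 ± 0.34, Cxcl2 by -0.89 ± 0.36 and Ccl2 by -0.81 ± 0.34 (SE), the last 2 being chemokines for neutrophils and monocytes.

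Of 8 genes that IL-18 induces, mostly through interferon-γ, 6 were lower and 2 higher, and 0 of the lower and 1 of the higher ones had an unadjusted p below 0.05 (1 of 8, or 12.5%, beside 23.5% of all genes; median -0.13). The higher one, the chemokine gene Cxcl9, read 0.61, 1.70, 1.39 and 2.36 in the wild-type lungs and 3.36, 3.11, 2.93 and 3.50 in the knockout lungs. Its groups did not overlap and differed by 1.71 ± 0.34 (SE; limma, adjusted p = 0.0628), while Gzmb differed by -0.56 ± 0.28, Tbx21 by -0.39 ± 0.26 and Stat4 by -0.24 ± 0.17 (SE). Of 13 genes that IL-33 induces or that mark its responder cells, 10 passed the filter, 5 lower and 5 higher, and 1 of the lower ones had an unadjusted p below 0.05 (1 of 10, or 10%; median -0.080), and the type 2 cytokines Il5, Il13 and Il9 did not pass it. Il4, counted as lower, passed only through the wild-type group, being well above background on 4 wild-type arrays and 1 knockout array. Klrg1, a receptor of activated lymphocytes, differed by -0.89 ± 0.20 without overlap (SE; limma, adjusted p = 0.072), Arg1 by -1.11 ± 0.54, Gata3 by 0.40 ± 0.20 and Areg by -0.66 ± 0.56 (SE).

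**Figure D5:**
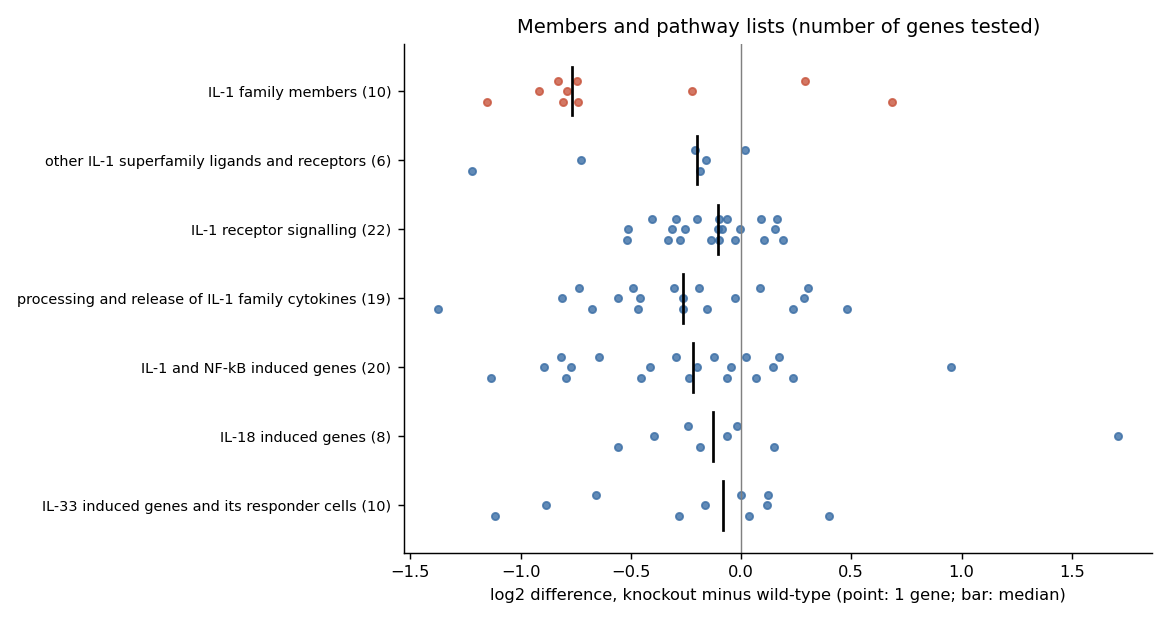
Difference between knockout and wild-type lungs for each tested gene of the IL-1 family members and of 6 pathway lists (horizontal axis, log2 scale; 1 point per gene, black bar the median, number of genes tested in brackets; vertical scatter within a row has no meaning). The median of the members is -0.77 and those of the 6 lists lie between -0.26 and -0.080, with Cxcl9 the farthest point to the right.

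Markers of myeloid cells were mostly lower in the knockout lungs as well. Over all genes tested, 54.3% were lower and 23.5% had an unadjusted p below 0.05. All 11 tested markers of monocytes and interstitial macrophages were lower, 9 of them with an unadjusted p below 0.05 (9 of 11, or 81.8%; median -0.76), with a mean level of 3.16 to 3.48 in wild-type and 2.24 to 2.90 in knockout samples. In this list Plac8 differed by -0.84 ± 0.16, the IgG receptor gene Fcgr1 by -1.03 ± 0.22 and Treml4 by -1.15 ± 0.26 (SE), and Ly6c2 was not used here. Of 9 neutrophil markers 6 were lower (median -0.28), and 2 of the 9 (22.2%) had an unadjusted p below 0.05, near the share of all genes. Their mean level was 4.81 to 5.34 in wild-type and 4.51 to 4.998 in knockout samples. Cxcr2 differed by -1.102 ± 0.24 and Retnlg by -0.57 ± 0.17, whereas S100a9, an abundant neutrophil protein gene, differed by 0.11 ± 0.072 (SE), and Ly6g was not used here. Of 10 alveolar macrophage markers 7 were lower, and 4 of the 10 (40.0%) had an unadjusted p below 0.05. Their median was -0.37, with a mean level of 2.15 to 2.69 in wild-type and 1.89 to 2.18 in knockout samples. Ear1 differed by -1.12 ± 0.18, Ear2 by -0.997 ± 0.18 and Fabp1 by -1.47 ± 0.27 (SE). The markers that were higher were Pparg (0.13 ± 0.12), Mrc1 (0.026 ± 0.26) and Krt79 (0.33 ± 0.26, SE). The part of these cells in the lower levels of Il1a, Il1b, Il1rn and Il1r2 was not tested.

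Beside Il33, 6 of 9 alveolar type 2 markers were lower (median -0.20), with Abca3 at -0.51 ± 0.20, Sftpa1 at -0.53 ± 0.21 and Napsa at -0.33 ± 0.13 (SE). An unadjusted p below 0.05 was found for 3 of the 9 (33.3%), beside 23.5% of all genes. The markers that were higher were Sftpc (0.091 ± 0.10), Sftpd (0.13 ± 0.12) and Lamp3 (0.025 ± 0.14, SE). In knockout replicate 3, where Il33 was lowest, the mean level of the 9 markers was 6.11, within the wild-type range. Beside Il1rl1, 4 of 8 tested mast cell and basophil markers were lower and 4 higher (mean level -0.59 to -0.014 in wild-type and -1.11 to 0.52 in knockout samples), and knockout replicate 3 had the lowest mean level of that list (-1.11) and the highest Il1rl1 value. Of that list the mast cell tryptase gene Tpsb2 differed by 0.65 ± 0.19, Kit by -0.33 ± 0.17 and the basophil protease gene Mcpt8 by -1.04 ± 0.56 (SE), and Ms4a2 did not pass the filter. Of 10 endothelial markers 6 were lower (median -0.11; mean level 3.33 to 3.84 in wild-type and 3.31 to 3.88 in knockout samples), with Vwf at -0.48 ± 0.14, Tie1 at -0.40 ± 0.21 and Egfl7 at 0.36 ± 0.21 (SE). Over all genes tested, 54.3% were lower. The part of these cells in the values of Il33 and Il1rl1 was not tested.

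Cardiac muscle markers differed widely between the lungs. The mean level of 10 such markers was -0.23, 4.10, 1.22 and 1.28 in the wild-type lungs and 2.46, 4.47, 1.49 and 4.30 in the knockout lungs. The high values were in wild-type replicate 2 and knockout replicates 2 and 4, and all 10 were higher in the knockout lungs (median 1.63; Myh6 2.001 ± 1.07, Myl4 1.88 ± 1.05, Tnni3 1.58 ± 0.89, SE). All 7 tested fat markers were higher (mean level -3.63 to 1.09 in wild-type and -3.03 to 2.90 in knockout samples), with Cidec at 2.29 ± 1.13 and Fabp4 at 1.44 ± 0.85 (SE). Lep was not well above background on any wild-type array and was so on 3 knockout arrays. Adipoq and Plin1 were so on 2 wild-type and 3 knockout arrays each. Lep, Adipoq and Plin1 thus passed the filter only through the knockout group, where they were higher, so their direction carries little weight. An unadjusted p below 0.05 was found for 0 of the 10 cardiac and 1 of the 7 fat markers (Lep), beside 23.5% of all genes. The part of such tissue in the spread of the IL-1 family values was not tested.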

How the data were processed

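Whole-lung RNA was labelled with Cy3 per the labels' protocols, and the deposited scanner files hold intensity values that Agilent Feature Extraction 10.7.1.1 made, per the file headers; the version is also in the submitters' processing notes. The processed intensity is background-subtracted and detrended, with a surrogate value for signals not told from background. Surrogates stood for 14.8% to 19.6% of spots on wild-type and 20.2% to 23.9% on knockout arrays. The authors also deposited a table of log2 values whose normalization is unstated. Its columns followed log2 processed signal (r above 0.999) and had medians of 5.64, and its centring method stays unknown. Probe coordinates are on mm9.

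Control spots and 154 to 245 outlier spots per array were not used, spots of a probe were averaged on the log2 scale and each array's 75th percentile was subtracted. A probe was kept if well above background on at least 3 of the 4 arrays of a group, and the brightest kept probe stood for a gene. The groups were compared by two-sided moderated tests of limma 3.58.1 (lmFit, eBayes; R 4.3.3) over all genes, and separately on all probes, after being tested on simulated data. Figures were drawn with matplotlib 3.10.9. A p-value sets the difference between the groups against the spread within groups of 4 mice, with each gene's variance drawn towards that of all genes. Each lung had its own array, so spread between mice and between arrays is not told apart.

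The members, lists, tests and alternatives were chosen with earlier results of these data known. Named were all members and their probes, up to 4 genes by p per pathway list and 3 per marker list, the 3 genes most like Il1b, Il33 and Il1rl1, and Ggps1. Further genes of some lists were named where they went the other way or lay near background. Alternatives were normexp background correction (offset 50), quantile normalization, median centring, 2 other filters, the deposited table, the replicate number as a block, averaging a gene's probes, an intensity trend and leaving out each sample. Same-numbered samples correlated in their deviations from the group means at 0.14, 0.44, 0.042 and -0.26. These correlations cannot decide whether the numbers pair the samples, which also shared a slide column. The main test used no pairing. Ggps1 probes were read in the fit over probes. Promoters came from RefSeq (GRCm38.p6).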

Additional observations from a re-analysis of the deposited data

Results flagged for a closer look

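In 28 groups of 4 values (each of the 14 probes in each genotype), the highest or lowest value was compared with its nearest neighbour as a share of the group's range, against Dixon's 95% limit for 4 values, which chance exceeds in about 1 group of 20. The values of 2 groups exceeded it. The Il33 level of knockout replicate 3 was 0.73, far below its nearest knockout value of 2.89 (share of the range 0.834). The Il1rap level of wild-type replicate 2, by the probe for the soluble form, was 0.058, far above its nearest wild-type value of -0.80 (share 0.882). Without those samples the differences were -0.15 for Il33 and -0.60 for Il1rap.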

How the results depend on the processing

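All 10 members kept the sign of their difference in all 17 alternatives, and the median over the members was between -0.95 and -0.46. The replicate block, the intensity trend and both other filters left every member's difference unchanged. Averaging a gene's probes changed that of Il1rap only. The kept signs in these alternatives are therefore no further evidence of stability. With 9 alternatives besides leaving out samples, the number of members past the threshold was 0 except for 1 (Il1rl1) with normexp (0.61), no filter on dim probes (0.68) and an intensity trend (0.68), and its limma adjusted p was between 0.0452 and 0.152 over all 17. Leaving out 1 sample gave 0 members past the threshold each time, and differences of -1.54 to -0.82 for Il1a, -1.04 to -0.49 for Il1b, -1.20 to -0.38 for Il18, -1.01 to -0.15 for Il33, -1.33 to -0.42 for Il1rn, -0.98 to -0.59 for Il1r2, -0.33 to -0.14 for Il18bp, 0.20 to 0.42 for Il1r1, -0.95 to -0.60 for Il1rap and 0.59 to 0.76 for Il1rl1. Counts over all genes moved more. Against 8 genes that rose and 7 that fell, there were 229 and 283 with normexp, 2737 and 785 without a filter, 59 and 67 with a filter on all 8 arrays, 160 and 257 with an intensity trend and 3 and 3 with the mean of a gene's probes. Median centring gave 11 that fell. Leaving out 1 sample gave 1 to 11 that rose (1 without wild-type replicate 2 or 3 or knockout replicate 1 or 2) and 0 to 12 that fell (0 without wild-type replicate 1 or 2 or knockout replicate 1 or 2). Among probes, only the dim Il1rap probe for ENSMUST00000096129 reversed, to 0.0079 with normexp, and the cause was not tested. The replicate number as a block gave 10 genes that rose and 33 that fell and no member past the threshold (limma, adjusted p = 0.0598 for Il1a, Il18 and Il1r2, 0.075 for Il1b, 0.088 for Il1rl1 and 0.101 for Il1rap). The SE with this block was lower for some members and higher for others. It was 0.10 against 0.52 in the main test for Il18, and 0.144 against 0.136 for Il1rl1. Not every sample correlated best with its own number: wild-type replicate 1 did so with knockout replicate 3 (0.24, against 0.14 with knockout replicate 1). The slide as a block was not run because there was 1 slide. Signal over background limits both dim Il1rl1 probes, which have no test.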

Other observations

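Other cell type markers differed between the genotypes without a gene past the threshold (limma, Benjamini-Hochberg adjusted). Over all genes tested, 23.5% had an unadjusted p below 0.05 and 54.3% were lower. All 10 ciliated cell markers were higher in the knockout lungs (median 0.59; mean level 0.16 to 0.66 in wild-type and 0.67 to 1.5002 in knockout samples), 6 of them with an unadjusted p below 0.05, with Foxj1, the transcription factor of motile cilia, at 0.59 ± 0.13 and Cdhr3 at 1.18 ± 0.27 (SE). The 8 club and secretory markers were all higher, 3 with an unadjusted p below 0.05 (median 0.59; mean level 4.73 to 5.999 in wild-type and 5.53 to 6.74 in knockout samples), with Cbr2 at 0.69 ± 0.12 and Cyp2f2 at 0.70 ± 0.20 (SE). The 8 markers of alveolar type 1 cells were all lower, 4 with an unadjusted p below 0.05 (median -0.42; mean level 4.01 to 4.69 in wild-type and 2.94 to 4.20 in knockout samples), with Igfbp2 at -1.28 ± 0.30, Akap5 at -0.88 ± 0.25 and the water channel gene Aqp5 at -0.44 ± 0.15 (SE).

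All 8 tested T and NK cell markers were lower, 2 with an unadjusted p below 0.05 (median -0.36; mean level 0.16 to 0.30 in wild-type and -0.53 to 0.067 in knockout samples), with the NK cell receptor gene Ncr1 at -0.95 ± 0.24, Nkg7 at -0.47 ± 0.14 and Klrb1c at -0.58 ± 0.26 (SE). Of 9 fibroblast markers 5 were lower and 4 higher, 1 and 2 of them with an unadjusted p below 0.05 (median -0.12; mean level 2.92 to 3.39 in wild-type and 3.19 to 3.49 in knockout samples), with Fn1 at -0.41 ± 0.12, Lum at 1.03 ± 0.36 and Dcn at 0.77 ± 0.31 (SE). Of 8 smooth muscle markers 7 were higher, 2 with an unadjusted p below 0.05 (median 0.78; mean level 0.83 to 1.92 in wild-type and 1.22 to 2.95 in knockout samples), with Synpo2 at 1.76 ± 0.53, Myh11 at 1.08 ± 0.47 and Actg2 at 1.04 ± 0.46 (SE).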
